A study of Mus musculus with 28 samples.

Results

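The genes described here are 9 long noncoding RNA genes, Malat1, Neat1, Miat, Meg3, Rian, Kcnq1ot1, Snhg11, Firre and Ftx, whose transcripts are known mainly from the nucleus. They were chosen by name and by measured values, namely low or zero counts in ribosome-bound RNA beside cortex RNA in earlier results of these data, and all 9 were found among the 43629 genes of the count table. The mice carried the Glt25d2 BacTRAP transgene, in which the regulatory DNA of Glt25d2 (now Colgalt2, active in layer 5 projection neurons of the cortex) drives a tagged ribosomal protein, so that a pulldown of the tag (IP) collects RNA bound to ribosomes of those neurons. Each IP fraction stands beside Input RNA of the cortex, which holds RNA of all cell types and of nuclei as well as cytoplasm. Experimental autoimmune encephalomyelitis (EAE), an immune attack on myelin that serves as a model of multiple sclerosis, was induced with the myelin peptide MOG35-55. The libraries fell into 6 groups, all of the one transgenic genotype: healthy IP and healthy Input with 5 each, acute EAE (day 15) IP and Input with 5 each, and chronic EAE (day 30) IP and Input with 4 each, 28 in all. Sex and age are not labelled. Whether each library is from its own animal is not labelled either, and p-values therefore measure a spread between libraries that may be partly technical.

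As background, most RNAs leave the nucleus and are read by ribosomes, whereas these transcripts work as RNA at or near chromatin. Malat1 gathers in nuclear speckles, where splicing factors are stored, and Neat1 is the scaffold of paraspeckles, bodies built with proteins such as Sfpq and Nono. Miat (Gomafu) forms nuclear dots in neurons, Meg3 and Rian are expressed from the maternal copy of the imprinted Dlk1-Dio3 domain, and Kcnq1ot1 is the paternal antisense RNA that silences its own imprinted domain. Snhg11 is a host gene of small nucleolar RNAs, Firre anchors chromosomal regions at the nuclear matrix, and Ftx lies in the X-inactivation center as a regulator of Xist. Because a nuclear RNA should not meet ribosomes, reads of such genes in a pulldown may come from non-ribosomal RNA carried along, which was not tested here. The reference annotation (GENCODE M21) types 1 of the 9, Snhg11, as protein coding, which goes against its description as noncoding. Malat1, Meg3, Neat1, Miat and Ftx are lincRNA genes there, Rian and Firre are processed transcripts and Kcnq1ot1 is an antisense gene.

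Input libraries held 17848273 to 27915940 counts assigned to genes and 20714 to 21734 detected genes. IP libraries held 6198088 to 21229550 counts and 9566 to 17995 detected genes, the fewest in acute replicates 3 and 1, chronic replicate 3 and healthy replicate 5. The summed level of 6 layer 5 projection neuron markers was 503 to 567 CPM (counts scaled to a common library size) in healthy Input and 953 to 1278 CPM in healthy IP, with no overlap. Of the 6, 3 were called higher in healthy IP, where 7.2% of all genes were, and 2 had a ratio below 0. Astrocyte, oligodendrocyte and inhibitory neuron marker sums were lower in healthy IP. The endothelial sum was higher there (13.1 to 53.5 against 6.17 to 12.2 CPM), with 0 of 4 markers called. In chronic libraries the inhibitory neuron sum was 992 to 1345 CPM in IP and 918 to 1006 CPM in Input. Colgalt2, the gene whose DNA drives the tag, was higher in IP by 0.63 (log2, adjusted p = 0.00643) in acute and 0.75 (adjusted p = 0.00295) in chronic libraries, and by 0.36 (adjusted p = 0.130) in healthy ones. Here and below, differences are log2 values ± SE and adjusted p is from edgeR's quasi-likelihood test with Benjamini-Hochberg adjustment over all genes.

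All libraries were made from poly A enriched RNA, so how each transcript ends bears on whether it is captured. Malat1 is cut after a genomic run of A and ends in a triple helix rather than a made tail, and Neat1 has a short polyadenylated form and a long form that ends like Malat1. The stretches below are from the GENCODE transcripts on GRCm38, all on the minus strand, 5′ to 3′; capitals mark the longest A run of Malat1 (12 bases, at bases 6674 to 6685 of 6983) and the AATAAA polyadenylation signal of the short Neat1 form.
Malat1-201, chr19:5795974-5796069: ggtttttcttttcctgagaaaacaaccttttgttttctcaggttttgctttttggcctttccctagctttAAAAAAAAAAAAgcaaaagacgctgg
Neat1-202, last 60 bases, chr19:5842307-5842366: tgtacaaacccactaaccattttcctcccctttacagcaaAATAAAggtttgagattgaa
Neat1-201, last 60 bases, chr19:5824708-5824767: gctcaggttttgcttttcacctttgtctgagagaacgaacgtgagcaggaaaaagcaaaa
The long Neat1 form held neither AATAAA nor ATTAAA in its last 50 bases. Over the longest transcript of each gene, 7 of the 9 genes held one of these hexamers in the last 50 bases (Neat1 and Ftx did not), against 68.7% of 21951 protein-coding genes and 41.0% of 5854 lincRNA genes. Malat1 is counted here by the end of its annotated record (base 6983), which lies past the A run after which the transcript is cut. Runs of A inside the transcript, at which oligo(dT) can also bind, reached 41 bases in Kcnq1ot1, 16 in Meg3 and 15 in Rian. What these features contributed to the counts was not tested.

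In Input, Meg3 was the most abundant of the 9 per length, with 66.7 ± 16.4 CPM per kilobase of exon (SD, n = 5) in healthy cortex. Snhg11 (44.1 ± 8.70), Rian (28.9 ± 1.23), Miat (21.6 ± 6.58) and Malat1 (12.8 ± 1.78) followed on the same scale, all SD with n = 5. Firre was at 4.85 ± 0.856, Neat1 at 3.24 ± 0.499, Ftx at 1.46 ± 0.151 and Kcnq1ot1 at 0.0308 ± 0.00417 CPM per kilobase (SD, n = 5). Neighbours in this order were separated by more than their SDs, except Meg3 from Snhg11 and Rian from Miat. The Kcnq1ot1 record spans 84395 bases as a single exon (GRCm38, chr7:143212155-143296549, minus strand), and only 24 to 58 reads fell on it in any Input library. Exon bases not shared with another gene record made up 86.2% (Malat1) to 100% (Firre) of each gene, and the genes overlapping Malat1, Meg3, Neat1, Miat, Snhg11 and Ftx had 0 counts in every library. A read on shared bases may be counted for neither record, so these 0 counts do not show that the overlapping genes were silent. Reads were counted without strand, so Kcnq1ot1 cannot be told apart from Kcnq1 on the other strand, which reached at most 45 counts in a library.

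**Figure D1:**
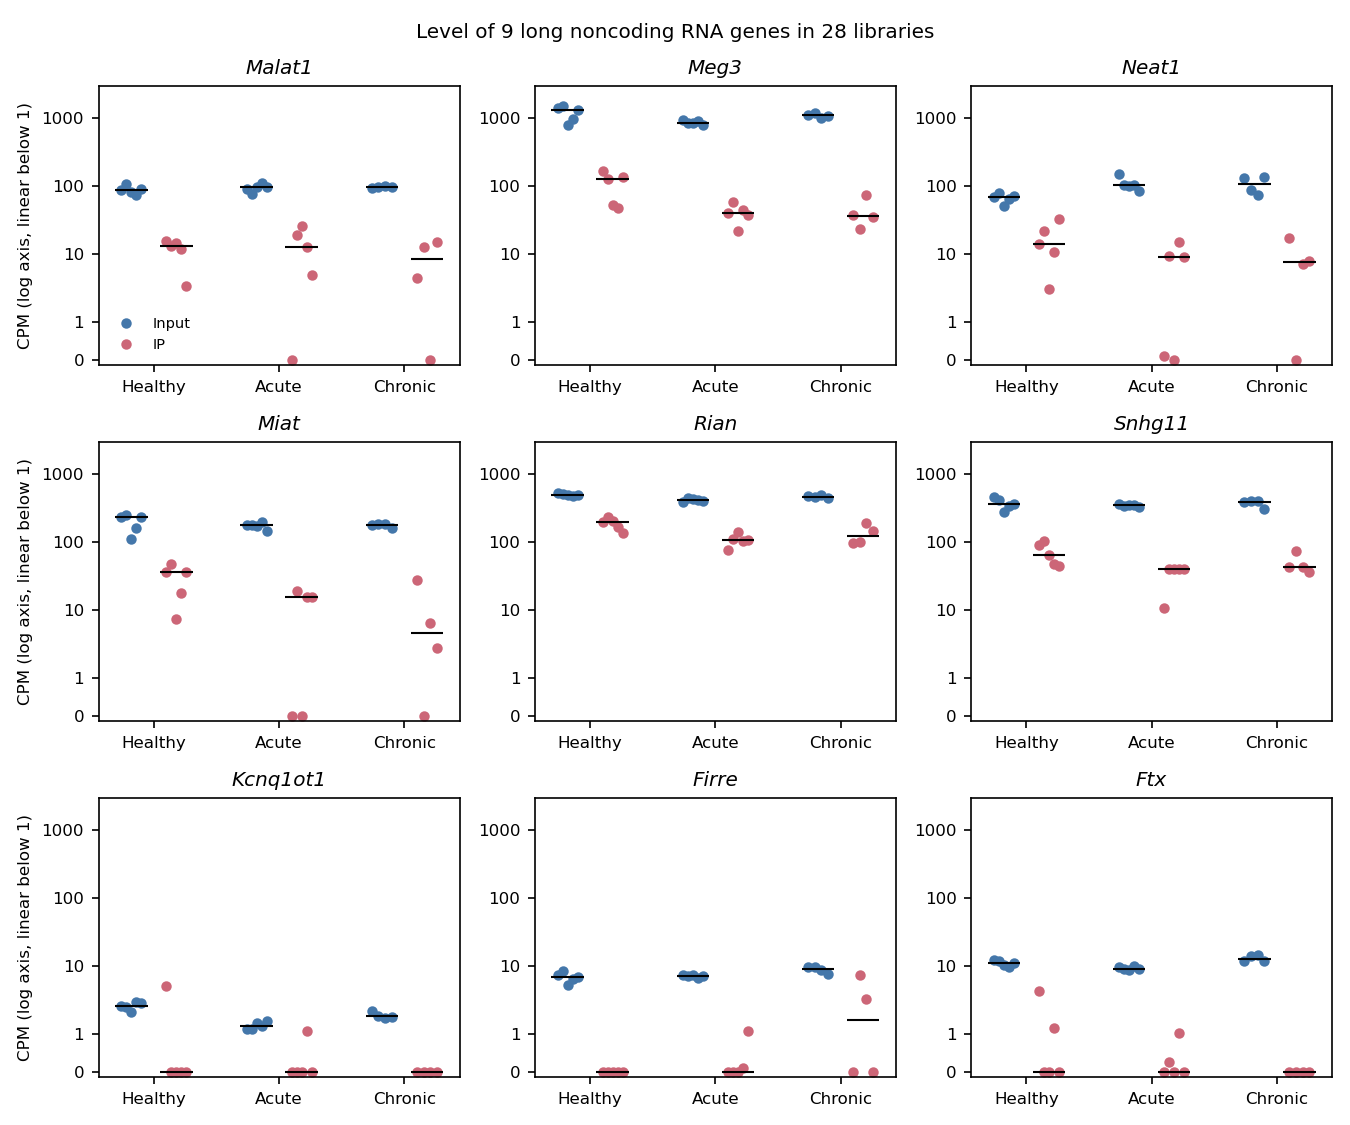
Level of each of the 9 genes in every library, in CPM on an axis that is logarithmic above 1 and linear below; blue points are Input libraries, red points IP libraries, and black lines are group medians. All IP points lie below the Input points of their phase except for Kcnq1ot1 in healthy replicate 1, and points at 0 are libraries without a single read.

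The first comparison asked how much of each RNA stayed in the ribosome pulldown. All 9 genes were lower in IP than in Input in healthy, acute and chronic libraries. Because the genes had been listed for being low in IP, these ratios are given as a description, without a test. Together the 9 genes took 0.196 to 0.308% of the counts of an Input library and 0.0124 to 0.0529% of those of an IP library. Their median log2 ratio of IP to Input was −2.78 in healthy, −3.95 in acute and −3.73 in chronic libraries, beside −0.23, −0.36 and −0.32 for all 16580 genes tested. IP and Input libraries did not overlap for 8 of 9 genes in healthy and 9 of 9 in acute and chronic libraries. The share of all genes without overlap was not computed, so these counts describe the 9 genes and do not set them apart from other genes. A ratio below 0 was found for 60.7%, 65.3% and 62.6% of all genes tested in the 3 phases. Of all genes, 14.4%, 10.1% and 20% were called lower in IP in these phases, and 33.3%, 45.9% and 30.4% of all calls were higher in IP. With scaling by library size alone these last shares were 22.1%, 27.8% and 20.1%, and the median of all genes shifted by −0.14, −0.22 and −0.20. Without the 4 IP libraries with the fewest detected genes the medians of the 9 genes were −2.67, −3.11 and −3.81.

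Of the genes of nuclear bodies, Malat1 had 275, 201, 262, 177 and 43 counts in healthy IP replicates 1 to 5, or 15.8, 13.2, 14.8, 12.0 and 3.36 CPM. Healthy Input replicates had 74.5 to 108 CPM. In acute IP replicates Malat1 had 0, 19.0, 25.7, 12.9 and 4.91 CPM against 78.2 to 111 CPM in Input, and in chronic IP 4.39, 12.7, 0 and 15.2 CPM against 95.3 to 101 CPM. The highest IP library thus lay well under the lowest Input library in each phase, and the fitted ratios were −2.91 ± 0.69, −2.94 ± 0.69 and −3.59 ± 0.80. Malat1 was absent from acute replicate 1 and chronic replicate 3, both among the IP libraries with the fewest detected genes. Its highest IP level, 25.7 CPM, was in acute replicate 3, which had the fewest detected genes of all (9566).

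Neat1 had 14.1, 22.1, 3.10, 10.7 and 32.9 CPM in healthy IP and 50.9 to 78.4 CPM in Input. It had 0.103, 9.48, 0, 15.2 and 9.10 CPM in acute IP, the first of these a single read, and 17.1, 0, 7.18 and 7.99 CPM in chronic IP. Its ratio was −2.02 ± 0.74 in healthy, −3.95 ± 0.80 in acute and −3.73 ± 0.88 in chronic libraries. Miat had 36.5, 47.5, 7.34, 17.8 and 36.9 CPM in healthy IP against 110 to 253 CPM in Input, 0, 19.0, 0, 15.6 and 15.4 CPM in acute IP, and 27.7, 0, 6.55 and 2.78 CPM in chronic IP. Miat was at 0 in acute replicates 1 and 3 and chronic replicate 2, the same 3 libraries in which Neat1 had 0 or 1 read. The ratio of Miat was −2.78 ± 0.77, −4.08 ± 0.82 and −4.27 ± 0.92 in the 3 phases, the last being −5.87 without chronic replicate 1. Across all 28 libraries Miat was the gene whose log2 level was most like that of Neat1, and the reverse (Pearson r 0.981), a likeness that both fractions and the shared zeros enter.

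The imprinted neighbours Meg3 and Rian, both on the plus strand of chromosome 12 (chr12:109541001-109571726 and chr12:109603940-109661716), were read in every IP library. Meg3 had 167, 129, 52.1, 47.6 and 137 CPM in healthy IP against 801 to 1505 CPM in Input, and its ratios of −3.50 ± 0.31, −4.41 ± 0.33 and −4.71 ± 0.37 were known with smaller SEs than those of the nuclear-body genes. In acute IP it had 40.8, 59.1, 22.1, 44.1 and 38.2 CPM, and in chronic IP 37.8, 23.2, 74.2 and 35.2 CPM. Of the 3 genes read in every IP library, Meg3, Rian and Snhg11, Rian kept the most of its Input level: 202, 233, 208, 169 and 136 CPM in healthy IP against 486 to 539 CPM in Input, a ratio of −1.41 ± 0.16. In acute and chronic libraries the ratio of Rian was −1.96 ± 0.16 and −1.81 ± 0.18. Snhg11, with its exons on chr2:158375638-158386145, was read in every IP library too, at 90.7, 104, 64.2, 47.6 and 44.3 CPM in healthy IP against 277 to 466 CPM in Input. Its ratios were −2.42 ± 0.27, −3.34 ± 0.28 and −2.94 ± 0.31.

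**Figure D2:**
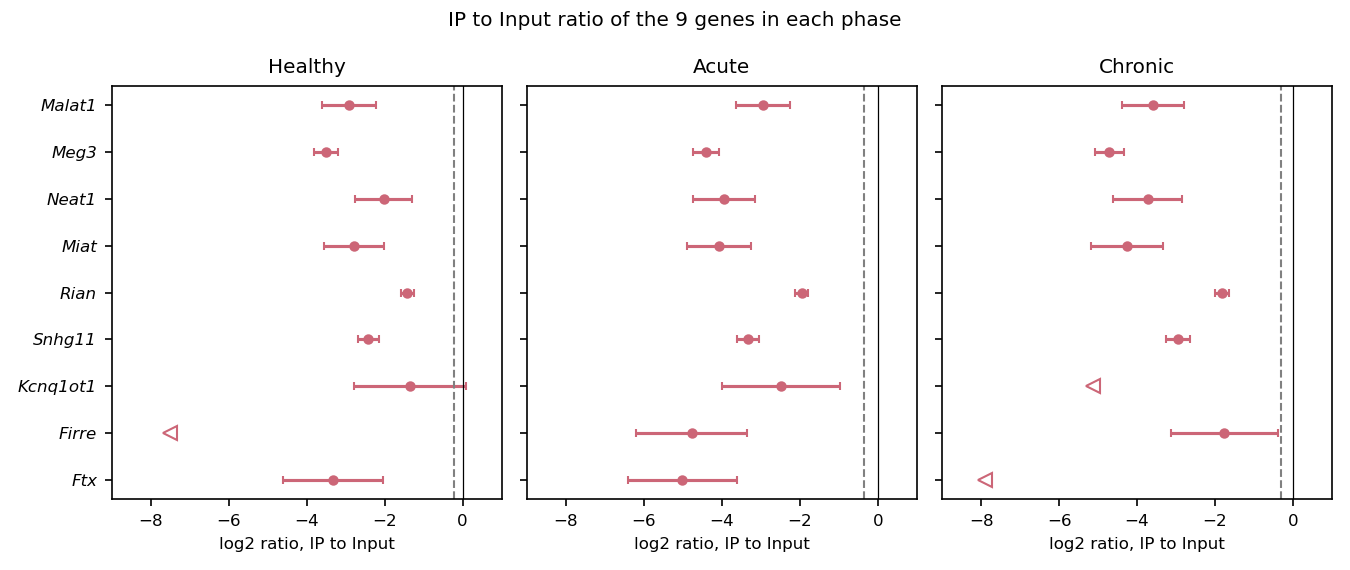
Fitted log2 ratio of IP to Input for each gene (point, with SE as a bar) in healthy, acute and chronic libraries; the dashed line is the median of all genes tested and the solid line is 0. Open triangles mark genes with 0 reads in every IP library of the phase and stand at the upper bound that 3 counts over the group allow; Rian lies at −1.41, −1.96 and −1.81.

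The 3 genes with the lowest Input levels were read in few IP libraries, and in those they were not always low. Kcnq1ot1 had 0 counts in 12 of 14 IP libraries, 88 counts (5.05 CPM) in healthy replicate 1 and 21 counts (1.10 CPM) in acute replicate 4. The first of these was above the Input libraries, which reached at most 2.95 CPM. Firre had 0 counts in 10 of 14 IP libraries, including all 5 healthy ones, and 2, 17, 89 and 36 counts in acute replicates 4 and 5 and chronic replicates 2 and 3. In chronic replicate 2 Firre stood at 7.31 CPM, just under the lowest chronic Input library at 7.79 CPM. Ftx had 0 counts in 10 of 14 IP libraries, including all 4 chronic ones, and 75, 18, 5 and 20 counts in healthy replicates 1 and 4 and acute replicates 2 and 4. Genes of like mean Input level, scaled by library size alone, give a comparison. Of 2618 others at 1.04 to 4.15 CPM, 9.59% were at 0 in at least 12 IP libraries, as Kcnq1ot1 was. The share with at least as many zeros was 1.74% of 3273 for Firre and 0.484% of 3722 for Ftx. It was 1.19% for Malat1, 1.18% for Neat1 and 0 of 2123 genes for Miat. The genes were listed for low or zero IP counts, so these shares are a description.

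Where a whole IP group was at 0, a floor of 3 counts over the group's libraries gives a bound on the ratio. Firre was at least 181-fold lower in healthy IP than in Input, Ftx at least 239-fold lower in chronic IP, and Kcnq1ot1 at least 34.8-fold lower in chronic IP. These bounds cover counting error only. Acute replicates 1 and 3, with 10174 and 9566 detected genes, each lacked 5 of the 9, and acute replicate 4, with 17995, lacked none. The part of library complexity in the zeros was not tested.

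Other noncoding RNAs, not listed for their IP level, were tested in the same comparison. Of 14 further nuclear noncoding genes in the table, 10 were tested, and 4, 2 and 4 were called lower in IP in healthy, acute and chronic libraries and none higher, where 14.4%, 10.1% and 20% of all genes were called lower. Their median log2 ratios were −1.73, −1.66 and −2.05. Mir124-2hg, host of the neuronal microRNA miR-124, was lower by −2.23 ± 0.39 in healthy IP (adjusted p = 0.000114), and Snhg14, which spans the imprinted Ube3a locus, by −2.35 ± 0.54 (adjusted p = 0.00172). Tug1 was lower by −1.07 ± 0.31 in healthy (adjusted p = 0.0106) and −1.45 ± 0.35 in chronic libraries (adjusted p = 0.00241). Airn was called in healthy libraries, where all 5 IP libraries were at 0 and Input held 0.673 ± 0.299 CPM (SD, n = 5). In chronic IP, Airn was at 0 in 3 of 4 libraries but reached 7.46 CPM, above the chronic Input maximum of 0.990 CPM. Xist was called in chronic libraries, where all 4 IP libraries were at 0, but the groups overlapped since an Input library was at 0 as well. In healthy IP, Xist averaged 5.16 ± 4.67 CPM, above its 0.725 ± 0.243 CPM in Input (SD, n = 5).

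Some noncoding RNAs known from the cytoplasm were lower in IP as well. Of 12 present, 11 were tested, and 2, 4 and 3 were called lower in healthy, acute and chronic libraries, with medians of −1.12, −2.28 and −2.14. Most did not pass the test, and the counts in healthy and chronic libraries are near what the share of all genes called lower gives (14.4% and 20%, against 10.1% in acute). Oip5os1 (Cyrano), which brings about the decay of miR-7, fell from 809 ± 66.1 CPM in Input to 154 ± 20.7 CPM in healthy IP (SD, n = 5). Its ratio was −2.39 ± 0.15 (adjusted p = 1.59e-12), −2.55 ± 0.15 (adjusted p = 2.96e-13) and −2.53 ± 0.17 (adjusted p = 2.22e-12) in the 3 phases. Norad, which binds Pumilio proteins in the cytoplasm, was lower by −2.48 ± 0.54 in healthy (adjusted p = 0.000937), −2.65 ± 0.54 in acute (adjusted p = 0.000541) and −2.58 ± 0.60 in chronic libraries (adjusted p = 0.00184). These ratios lay between those of Rian and Meg3 in each phase, and no test of the difference between the lists was made. Among the messenger RNAs of proteins that bind these transcripts, Nono, a paraspeckle protein, was higher in IP by 0.67 ± 0.13 in healthy libraries (adjusted p = 0.000280), and Qk, an RNA-binding protein of glia, was lower by −1.93 ± 0.23 (adjusted p = 6.52e-07). Of 14 such genes, 2 were higher and 2 lower in healthy IP, 3 and 3 in acute IP, and 5 and 2 in chronic IP, while 7.2%, 8.56% and 8.74% of all genes were called higher and 14.4%, 10.1% and 20% lower in these phases.

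The second comparison followed the 9 genes through disease in Input. In acute EAE 4 of 9 were called: Neat1 rose, and Rian, Kcnq1ot1 and Meg3 fell. Of all 16381 genes tested, 19.7% were called in this comparison, 11.1% higher and 8.59% lower, so a count of 4 in 9 stands against a high background. The fall of Kcnq1ot1 was already known when the gene was listed, so the count is not independent of the choice of genes. The median log2 change of the 9 genes was −0.19 and that of all genes −0.01. DESeq2 also called 4 of the 9.

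Rian had 539, 512, 495, 486 and 492 CPM in healthy Input and 395, 454, 430, 422 and 412 CPM in acute Input. All acute libraries lay below all healthy ones, and the change was −0.26 ± 0.04 (adjusted p = 0.000256), called in 10 of 10 fits that left out 1 library. Chronic Input libraries had 478, 462, 505 and 445 CPM, between those groups and overlapping both. Rian was higher in chronic than in acute Input by 0.16 ± 0.05 (adjusted p = 0.0300), a call lost when any of acute replicates 1, 3 and 4 or chronic replicates 1, 2 and 3 was left out (adjusted p 0.0520 to 0.113).

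Its neighbour Meg3 had 1409, 1505, 801, 994 and 1320 CPM in healthy Input and 956, 853, 865, 914 and 789 CPM in acute Input. The healthy libraries varied most, and replicate 3 overlapped the acute ones. The fall of −0.46 ± 0.15 (adjusted p = 0.0448) was called in 2 of 10 fits that left out 1 library, those without healthy replicate 3 (adjusted p = 0.00222) or 4 (adjusted p = 0.0333). It was lost with scaling by library size alone (adjusted p = 0.0527) and without the filter on low counts (adjusted p = 0.0727). Chronic libraries, at 1137, 1221, 1010 and 1091 CPM, all lay above the acute ones, by 0.35 ± 0.15 (adjusted p = 0.198).

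Kcnq1ot1 had 2.55, 2.49, 2.09, 2.95 and 2.91 CPM in healthy Input, 1.19, 1.18, 1.47, 1.33 and 1.55 CPM in acute and 2.19, 1.82, 1.75 and 1.81 CPM in chronic Input. The acute libraries lay below all others. The acute change of −0.95 ± 0.17 (adjusted p = 0.000542) was among the lowest 0.672% of all genes and was called in 10 of 10 fits that left out 1 library; it rests on 24 to 35 reads per acute library, and it was already known when the gene was listed. The chronic level differed from healthy by −0.45 ± 0.18 (adjusted p = 0.238) and from acute by 0.50 ± 0.19 (adjusted p = 0.110). Kcnq1, on the opposite strand, was below the filter on low counts at 0.282 ± 0.0982 CPM in healthy and 0.232 ± 0.130 CPM in acute Input (SD, n = 5).

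Neat1 had 69.6, 78.4, 50.9, 65.1 and 72.5 CPM in healthy Input and 149, 103, 99.9, 103 and 84.5 CPM in acute Input. All acute libraries were above all healthy ones, with a rise of 0.68 ± 0.20 (adjusted p = 0.0319). The call held in 4 of 10 fits that left out 1 library and was lost without acute replicate 1 or 4 or healthy replicate 1, 3, 4 or 5 (adjusted p 0.0506 to 0.0660), and also without the filter on low counts (adjusted p = 0.0536). In chronic Input, Neat1 had 130, 87.8, 73.9 and 137 CPM, a pair of high and a pair of low libraries, and the change from healthy of 0.68 ± 0.21 was about as large but not called (adjusted p = 0.139; DESeq2 adjusted p = 0.0460).

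**Figure D3:**
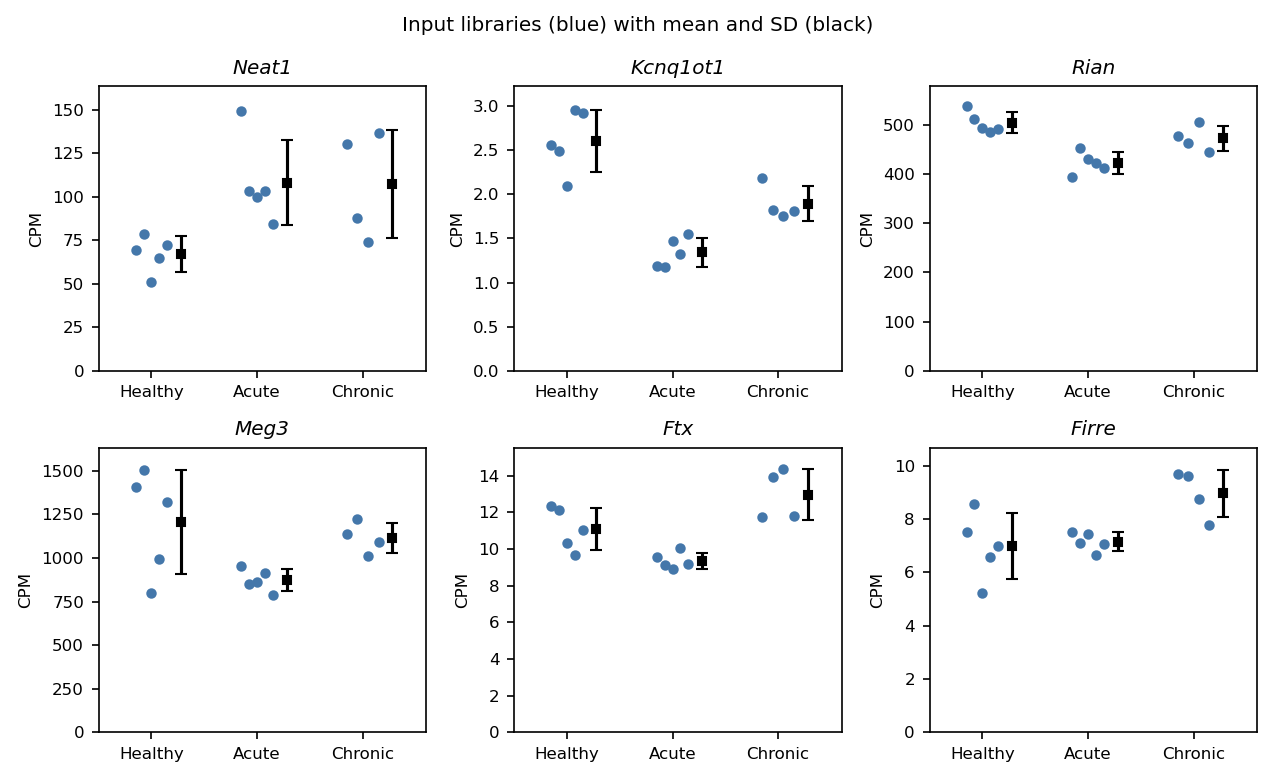
Input levels of 6 of the genes, in CPM from 0, for healthy, acute and chronic libraries; blue points are libraries and black squares with bars are group means with SD. Acute libraries lie below all healthy ones for Kcnq1ot1 and Rian and above them for Neat1, and Ftx is highest in chronic libraries.

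Ftx moved between the disease phases. It had 12.3, 12.1, 10.3, 9.67 and 11.03 CPM in healthy, 9.56, 9.11, 8.92, 10.04 and 9.20 CPM in acute and 11.7, 13.9, 14.4 and 11.8 CPM in chronic Input. Every chronic library was above every acute one, and Ftx rose by 0.47 ± 0.10 from acute to chronic (adjusted p = 0.00524), called in 9 of 9 fits that left out 1 library. Against healthy the changes were −0.24 ± 0.09 in acute (adjusted p = 0.0681) and 0.23 ± 0.10 in chronic (adjusted p = 0.274) Input. Firre, the other X-linked gene, had 7.79 to 9.69 CPM in chronic, 6.64 to 7.53 CPM in acute and 5.23 to 8.58 CPM in healthy Input, and its chronic level was higher by 0.33 ± 0.12 than the acute (adjusted p = 0.105). Together 2 of 9 genes, Rian and Ftx, were called between chronic and acute Input, where 7.69% of all genes were called.

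Between chronic and healthy Input 0 of 9 genes were called by edgeR, 4 had an unadjusted p under 0.05 and DESeq2 called 1, Neat1. Of all 16381 genes 2.74% were called there, and 2310 had an unadjusted p under 0.05. The acute and chronic contrasts share their healthy libraries. Malat1 stayed within 74.5 to 111 CPM over all 14 Input libraries, with changes of 0.09 ± 0.09 in acute (adjusted p = 0.524) and 0.14 ± 0.10 in chronic (adjusted p = 0.560) EAE. Miat changed by −0.19 ± 0.19 (adjusted p = 0.529) and Snhg11 by −0.10 ± 0.12 (adjusted p = 0.583) in acute Input. Healthy replicate 3 was the lowest of its group for Meg3, Miat, Neat1, Snhg11, Firre and Kcnq1ot1.

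Some cell type marker sums moved with the acute phase in the same Input libraries. Microglia and leukocyte markers summed to 32.1 to 50.7 CPM in healthy, 93.4 to 149 CPM in acute and 59.2 to 141 CPM in chronic Input, and 7 of 8 tested were called higher in acute Input, while none of the 9 markers was at 0 in all libraries of a group. Astrocyte markers summed to 674 to 986 CPM in healthy and 992 to 1518 CPM in acute Input, and 2 of 6 were called higher. The 4 pan-neuronal markers summed to 6705 to 7483 CPM in healthy and 6364 to 6712 CPM in acute Input. The part of these markers in the changes of Neat1, Rian, Meg3 and Kcnq1ot1 was not tested, and in bulk RNA fewer cells of a type and less RNA per cell cannot be told apart.

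Genes related by function were tested in the same acute Input contrast, in which 11.1% of all genes were called higher and 8.59% lower, and most of each list was not called. Of 10 further nuclear noncoding genes tested, Tug1 (−0.14 ± 0.04, adjusted p = 0.0190) and Mir124-2hg (−0.23 ± 0.05, adjusted p = 0.00455) fell and Pantr1 rose (0.25 ± 0.07, adjusted p = 0.0131). Of 11 cytoplasmic noncoding genes, a list made largely of hosts of small nucleolar RNAs, 4 rose and none fell. Those that rose were Zfas1 by 0.50 ± 0.08 (adjusted p = 0.000258), Gas5 by 0.37 ± 0.06 (adjusted p = 0.000408), Snhg12 by 0.33 ± 0.08 (adjusted p = 0.00829) and Epb41l4aos by 0.51 ± 0.15 (adjusted p = 0.0227). Of 14 genes for proteins that bind nuclear noncoding RNA, 4 fell and none rose. These were Hnrnpu, which holds RNAs such as Firre and Xist on chromatin (−0.26 ± 0.04, adjusted p = 0.000177), Matr3, a nuclear matrix protein (−0.26 ± 0.05, adjusted p = 0.00170), the splicing factor Srsf1 (−0.23 ± 0.04, adjusted p = 0.000869) and Hnrnpk (−0.15 ± 0.03, adjusted p = 0.00349). Between acute and chronic Input, Hnrnpu, Matr3, Srsf1 and Qk rose, by 0.22 ± 0.04, 0.22 ± 0.06, 0.16 ± 0.05 and 0.34 ± 0.08 (adjusted p 0.00508 to 0.0424), as did Tug1 and Mir124-2hg, while Zfas1 fell by 0.36 ± 0.09 (adjusted p = 0.0154).

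Protein-coding neighbours of the X-linked and imprinted genes were tested in Input as well. Rlim, the ubiquitin ligase gene of the X-inactivation center near Ftx, fell by 0.29 ± 0.05 (adjusted p = 0.000532) and rose again between acute and chronic Input by 0.24 ± 0.06 (adjusted p = 0.0120). Chic1, of the same region, fell by 0.21 ± 0.06 (adjusted p = 0.0134). No gene of the Dlk1-Dio3 domain beside Meg3 and Rian, and none beside Kcnq1ot1, was called among those tested.

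The windows around the start sites of the imprinted pair are shown because both fell in acute Input. RefSeq promoter windows (GRCm38.p6, 250 bases before to 50 after the start) were matched for 8 of the 9 genes by symbol, with 2 start sites for Meg3. Both strands were searched for the core of the interferon-stimulated response element (ISRE), the STAT site TTCNNNGAA, the cAMP response element TGACGTCA and the TATA box TATAAA. Capitals mark matches. In Meg3 the TATAAA on each strand overlaps the other.
Meg3, chr12:109540746-109541045, plus strand: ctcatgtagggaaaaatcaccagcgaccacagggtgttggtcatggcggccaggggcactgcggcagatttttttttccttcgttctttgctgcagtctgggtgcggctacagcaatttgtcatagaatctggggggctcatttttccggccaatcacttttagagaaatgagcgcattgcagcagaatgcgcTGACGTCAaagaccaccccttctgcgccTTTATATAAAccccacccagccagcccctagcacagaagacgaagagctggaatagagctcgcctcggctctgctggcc
Rian, chr12:109603695-109603994, plus strand: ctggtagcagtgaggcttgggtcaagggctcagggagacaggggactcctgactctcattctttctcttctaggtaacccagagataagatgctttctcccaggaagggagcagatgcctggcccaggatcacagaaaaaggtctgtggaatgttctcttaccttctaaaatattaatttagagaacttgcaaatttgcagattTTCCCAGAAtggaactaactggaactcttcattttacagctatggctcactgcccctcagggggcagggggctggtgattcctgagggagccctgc
Meg3 was the only one of the matched genes with TGACGTCA, which 588 of 32851 windows (1.79%) held, and with TATAAA, held by 13.6%. Rian was the only one with TTCNNNGAA, held by 8.30%, and the ISRE core, held by 3.44%, was in no window of the matched genes. The Meg3 window shown had 13 CpG sites and the Rian window 0. The window of the second Meg3 start site (chr12:109545148-109545447) had 1 CpG site and none of the motifs. A match is a string of letters in this window and not a measured binding site.

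The genes most like each of the 9 over the 14 Input libraries, by Pearson r of log2 level, are given as a description, since the libraries share their phases and cell makeup. Neat1 was most like Cd33 (r 0.932), a myeloid surface receptor, Nkx6-2 (0.912), a transcription factor of oligodendrocytes, and Ets1 (0.906). Kcnq1ot1 was most like Slit2 (0.927), Trhde (0.914) and Gria4 (0.905), Meg3 most like Fermt2 (0.931), Rlbp1 (0.929) and Ccp110 (0.925), and Rian most like Eid1 (0.950), Ube2b (0.930) and Psmc6 (0.919). Snhg11 was most like Tia1 (0.912), Zfp131 (0.908) and Ttc14 (0.901), and Miat most like Rcor1 (0.899), Frmd6 (0.893) and Tpm3 (0.878). Ftx was most like Nsun7 (0.902), Meioc (0.899) and Ube2d3 (0.862), Firre most like Pqlc3 (0.917), Itga10 (0.857) and Aldh6a1 (0.854), and Malat1 most like Sap30bpos (0.806), Homer3 (0.791) and Neb (0.783). Over all 28 libraries, where the IP level dominates, Snhg11 was most like Rnf11 (0.987), Malat1 like Ralgps2 (0.978), Rian like Nrsn1 (0.966), Meg3 like Nrsn1 (0.964), Ftx like Klf12 (0.958) and Firre like RF01953 (0.901). The value for Kcnq1ot1, r 0.980 with Gapdhs, comes from IP libraries of which 12 were at 0.

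The third comparison followed the genes through disease within IP, where 6 of the 9 passed the filter on low counts and 0 were called in any of the 3 phase contrasts. Of all 13914 genes 0.0647% were called in acute, 0.187% in chronic and 0% between chronic and acute IP. At an unadjusted p under 0.05 stood 3 of the 6 in acute, 2 in chronic and 0 between chronic and acute IP. Of all 13914 genes, 871, 1494 and 1145 did so. DESeq2 called 2, 0 and 0 of the 9 genes. Replicates varied far more in IP than in Input, with a common biological coefficient of variation of 1.06 against 0.101. With the 28 libraries fitted together, under one shared spread, edgeR called 3 genes in acute IP (Meg3, Rian and Snhg11) and 0 in acute Input.

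Rian had 78.0, 111, 143, 106 and 107 CPM in acute IP and 99.2, 102, 190 and 147 CPM in chronic IP, below or overlapping the healthy 136 to 233 CPM. Its changes from healthy were −0.80 ± 0.23 in acute (adjusted p = 0.287; DESeq2 adjusted p = 0.0351) and −0.50 ± 0.24 in chronic (adjusted p = 0.464) IP. Meg3 changed by −1.39 ± 0.38 in acute (adjusted p = 0.256; DESeq2 adjusted p = 0.0305) and −1.33 ± 0.41 in chronic (adjusted p = 0.199) IP. Snhg11 had 10.7, 39.7, 40.6, 40.5 and 40.8 CPM in acute IP, all below the healthy 44.3 to 104 CPM, and 43.4, 73.5, 43.2 and 36.6 CPM in chronic IP. Its acute change was −1.03 ± 0.36 (adjusted p = 0.487). Malat1, Neat1 and Miat changed by 0.08 ± 1.25, −1.32 ± 1.35 and −1.57 ± 1.32 in acute IP (adjusted p = 0.9999 for each), SEs that the libraries at 0 widen.

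**Figure D4:**
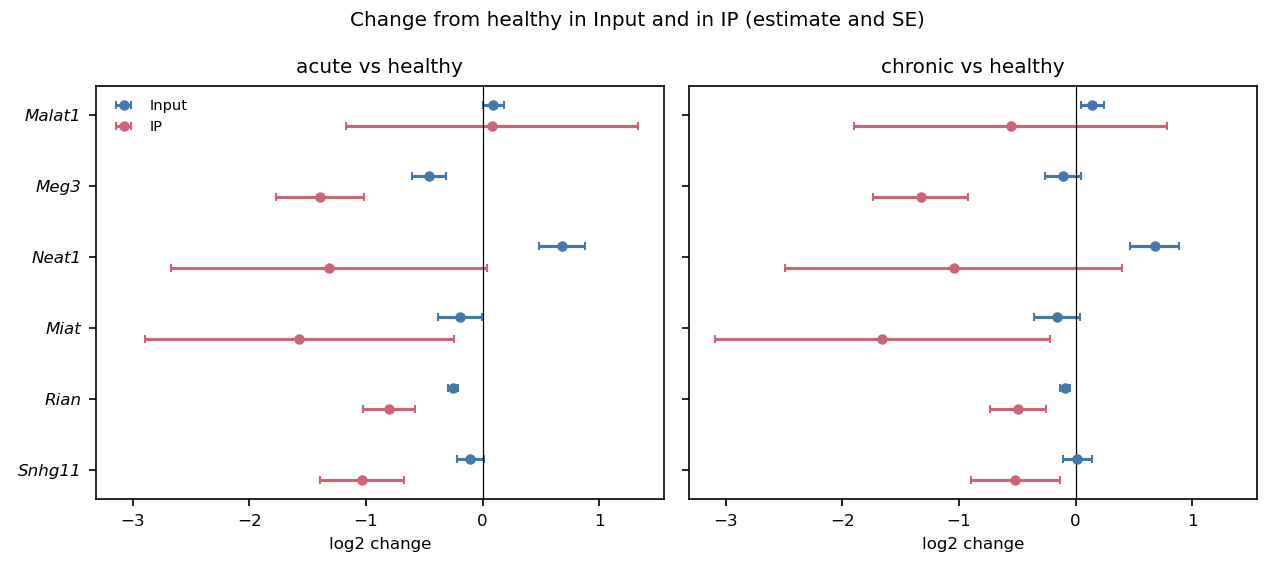
Log2 change from healthy in acute (left) and chronic (right) libraries for the 6 genes tested in both fractions, with SE as bars; blue is Input and red is IP. Input changes lie between −0.46 and 0.68 with short bars, and each IP estimate lies below the Input estimate of its gene, with long bars that overlap those of Input for Malat1 and Miat in both panels.

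Whether a gene changed differently in the 2 fractions was tested by an interaction over all 28 libraries. It was called for 0 of 9 genes in acute and 0 of 9 in chronic EAE, where 0.00603% and 1.03% of all genes were called. At an unadjusted p under 0.05 stood 4 in each, beside 1901 and 2734 of all 16580 genes, and DESeq2 called 0 and 1 (Firre). The 4 were Snhg11, Rian, Meg3 and Firre in acute and Meg3, Kcnq1ot1, Firre and Ftx in chronic EAE. Firre alone of these had the higher change in IP. For Firre, Kcnq1ot1 and Ftx these tests rest on a phase without IP reads. The acute change in IP minus that in Input was −0.92 ± 0.36 for Snhg11 (adjusted p = 0.230), −0.54 ± 0.22 for Rian (adjusted p = 0.244) and −0.91 ± 0.40 for Meg3 (adjusted p = 0.330). For Neat1, which rose in Input, it was −1.92 ± 1.02 (adjusted p = 0.513). In chronic EAE it was −1.21 ± 0.43 for Meg3 (adjusted p = 0.104). For Kcnq1ot1, Firre and Ftx no fitted value is given, since at least 1 phase had no IP reads or the value rested on 1 library.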

How the data were processed

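RNA of 14 IP and 14 Input libraries was prepared with RNeasy mini plus columns and poly A enrichment, per the labels' protocols. The authors deposited counts per gene made with featureCounts 1.5.1, which took paired reads over exons by gene identifier without strand on Ensembl release 79, per the file headers. The header names 36 alignment files, and the 28 count columns used here were all matched to samples. STAR 2.4, GRCm38 (mm10) and DESeq2 are named in the submitters' processing notes. The same deposited table gives an exon length per gene, used as an other value for CPM per kilobase.

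Counts were tested with edgeR 4.0.16 (quasi-likelihood F test, robust; TMM scaling; filterByExpr with a minimum count of 10 and total of 15; Benjamini-Hochberg over all genes; calls at an adjusted p under 0.05) in R 4.3.3. Input and IP were fitted apart for the phases (16381 and 13914 genes). All 28 libraries were fitted together for IP against Input and for the interaction (16580 genes). CPM are counts scaled to 1e6 of the TMM-scaled library size. Floors cover counting error only. SE values come from the quasi-likelihood fit, which includes the spread between libraries, and SD values are over the libraries of a group. Symbols were matched for 97.3% of identifiers.

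The 9 genes and the lists of other nuclear and cytoplasmic noncoding RNAs, binding proteins, neighbours and cell type markers were chosen with earlier results of these data known. In each list up to 4 genes with the smallest adjusted p in a contrast are named, and for each of the 9 the 3 genes most alike over Input. One result for a neighbouring gene is not reported here. On simulated counts of the acute comparison, the Input fit found 73 of 91 genes made to differ 2-fold (80.2%) and 107 of 109 made to differ 4-fold (98.2%), and 10 of its 190 calls were false. The IP fit found 14 of 103 (13.6%) and 42 of 97 (43.3%), and 4 of its 60 calls were false. Alternatives were DESeq2 1.42.0 (Wald test), its size factors within edgeR, library size alone, no filter, a replicate block, all libraries together, without the 4 IP libraries with the fewest genes, and each library left out in turn.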

Additional observations from a re-analysis of the deposited data

Results flagged for a closer look

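In 6 of 51 groups of 4 or 5 libraries, 1 library stood apart from the rest by Dixon's test, where chance gives about 1 in 20, and all 6 were IP groups. That rate does not apply to 5 of them, in which most or all other libraries were at or near 0, so that a library with reads readily stands apart. Kcnq1ot1 was at 5.05 CPM (88 counts) in healthy replicate 1 and at 1.10 CPM (21 counts) in acute replicate 4, with every other IP library of those groups at 0. Ftx was at 4.30 CPM (75 counts) in healthy replicate 1, where the next library had 1.23 CPM, and at 1.05 CPM (20 counts) in acute replicate 4, where the next had 0.265 CPM. Firre was at 1.11 CPM (17 counts) in acute replicate 5, the next library having 0.105 CPM. Snhg11 was low in acute IP replicate 1, at 10.7 CPM (104 counts), while the other 4 acute libraries lay between 39.7 and 40.8 CPM.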

How the results depend on the processing

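The count of the 9 genes called in acute Input went from 4 to 0 with the 28 libraries fitted together and to 2 without the filter on low counts, and ranged from 2 to 4 with 1 library left out. In acute IP it went from 0 to 3 with the 28 libraries together and to 2 with DESeq2. In chronic against healthy IP it went from 0 to 5 with the 28 libraries together, and with DESeq2 from 0 to 1 in chronic against healthy Input and in the chronic interaction. Between chronic and acute Input it went from 2 to 0 with the 28 libraries together and to 1 with the replicate block, and ranged from 1 to 2 with 1 library left out.

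IP and Input libraries of one number had correlated deviations of −0.06 to 0.20 (14 pairs, 8 over 0.1 and 9 best with their own number, a hint from the data that they pair). Not every pair was over 0.1 and the labels do not say what a number shares, so IP and Input were not treated as pairs, and 5 of 13 Input and 3 of 13 IP comparisons between phases were over 0.1. With a replicate block that joined IP and Input of one phase and number, the median ratio of the 9 genes was −4.68 in acute and −4.44 in chronic libraries. In the fits within Input or within IP, the block instead joined libraries of one number across phases. With that block in edgeR, Meg3 in acute Input had an adjusted p of 0.0585 and Rian between chronic and acute Input 0.0683. Without the 4 IP libraries with the fewest genes the acute median ratio was −3.11. With 1 library left out the chronic median ranged from −4.29 to −3.82.

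Signs turned only for changes that passed no test in either fit. Malat1 in the acute interaction was 0.013 with DESeq2, and in acute IP −0.15 with the block and −0.19 without the 4 libraries. Between chronic and acute IP, Miat was 0.65 with the block, and Meg3 and Neat1 were −0.55 and −0.42 without the 4 libraries. With 1 library left out, Malat1 ranged from −0.43 to 0.27 in the acute interaction, −0.38 to 0.40 in acute IP and −0.017 to 0.109 between chronic and acute Input. Between chronic and acute IP, Meg3 ranged from −0.35 to 0.27, Miat from −1.67 to 0.33 and Neat1 from −0.42 to 0.81, and in Input Miat from −0.023 to 0.074 and Neat1 from −0.16 to 0.13. Snhg11 ranged from −0.075 to 0.101 between chronic and healthy Input and Firre from −0.047 to 0.118 between acute and healthy Input.

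Over all genes, acute calls in IP were 9, and 167 with DESeq2, 1611 with the 28 libraries together, 2 with the replicate block and 1 without the 4 libraries. Chronic calls in IP were 26, and 404, 2550, 15 and 40 under the same settings and 54 with DESeq2 size factors. Between chronic and acute IP calls were 0, and 193 with DESeq2 and 1762 with the 28 libraries together. Interaction calls were 1 in acute (616 with DESeq2, 101 without the 4 libraries, 0 with the block or library size alone) and 170 in chronic EAE (1196, 337 and 28, and 47 without the filter). In Input, the 28 libraries together gave 20 calls for 3230 in acute, 0 for 449 in chronic (695 with DESeq2) and 0 for 1259 between the phases. The cause of these differences was not tested.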
